A study of Homo sapiens with 6 samples.

Results

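The D-type cyclins, the kinases they activate and the inhibitors of those kinases were examined as 10 genes: CCND1, CCND2, CCND3, CDK4, CDK6, CDKN1A, CDKN1B, CDKN2A, CDKN2B and CDKN2C. They were chosen by name and matched to Ensembl gene identifiers, and all 10 were found among the 62754 genes of the count table and passed the filter on low counts. RNA was measured in 6 libraries of HEK293, a human embryonic kidney line that carries adenovirus E1 genes, while the cell line field names its derivative HEK293T, which also carries SV40 large T antigen. The 3 control libraries came from cells labelled only as control, and the labels do not say whether those cells received a vector or selection. The 3 FAM60A-knockout libraries came from a puromycin-selected pool, not a clone, transfected with Cas9 and guides against several regions of FAM60A (now SINHCAF), a subunit of the Sin3/HDAC deacetylase complex. Nothing in the labels says that the 3 libraries of a group came from separate cultures, so each p-value measures only the spread between these libraries, which may be technical. CCND1 has been described as a gene controlled by FAM60A, which is why it is looked at closely here. The study itself made the comparison to ask how loss of FAM60A alters gene expression.

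D-type cyclins bind CDK4 or CDK6 in early G1, and the complexes phosphorylate the retinoblastoma protein RB, which releases E2F transcription factors and lets cells enter S phase. Inhibitors of the INK4 family bind CDK4 and CDK6 themselves and keep the cyclin off. The 10 genes include those of p16, p15 and p18 (CDKN2A, CDKN2B and CDKN2C) and leave out CDKN2D (p19). Inhibitors of the CIP/KIP family (p21 from CDKN1A and p27 from CDKN1B) bind cyclin-CDK complexes and act chiefly on CDK2, and CDKN2A also encodes p14ARF, a protein of another reading frame, from a separate first exon. E1A and large T antigen both bind RB, so the pathway downstream of the D cyclins is altered in this line whatever the group.

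FAM60A RNA was 113, 106 and 132 CPM (counts as a rate per library, on edgeR's TMM scale) in control replicates 1, 2 and 3 and 67.5, 66.0 and 61.7 CPM in the knockout libraries. Every knockout library was below every control, with a log2 fold change of −0.85 (SE 0.11, edgeR quasi-likelihood adjusted p = 0.00863), and the transcript was still counted in the knockout pool. The study reports the knockout by immunoblot as well as by qRT-PCR, and RNA counts do not measure the protein left. Control replicate 3 was at the control level of FAM60A but stood apart in other genes: its level was nearer the knockout mean than the mean of control replicates 1 and 2 in 58.9% of 20992 genes tested. Results for the 10 genes are therefore given with and without control replicate 3. Total counts were 88361827 to 93346824 per library, and the lowest count of any of the 10 genes was 1988, which gives a counting error of 2.24%, the largest among them. In bulk RNA, fewer cells of a type and less RNA per cell cannot be told apart.

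The promoters of 8 of the 10 genes were available as RefSeq windows on GRCh38.p14, and CCND1 and CCND2 had none. The windows below are the 250 bases before an annotated start, and they are shown for CDKN2B, which differed most between the groups, for both starts of its neighbour CDKN2A, and for CDK4, which differed least. All 4 lie on the minus strand and are written 5′ to 3′: CDKN2B at chr9:22009306-22009555, the p14ARF start of CDKN2A at chr9:21995325-21995574, its p16 start at chr9:21974858-21975107, and CDK4 at chr12:57752311-57752560. Capitals mark a motif on either strand: the E-box CACGTG bound by MYC and related factors, the GC-box GGGCGG bound by SP1, and GGAATG, the core bound by TEAD factors, the DNA-binding partners of YAP1.
CDKN2B: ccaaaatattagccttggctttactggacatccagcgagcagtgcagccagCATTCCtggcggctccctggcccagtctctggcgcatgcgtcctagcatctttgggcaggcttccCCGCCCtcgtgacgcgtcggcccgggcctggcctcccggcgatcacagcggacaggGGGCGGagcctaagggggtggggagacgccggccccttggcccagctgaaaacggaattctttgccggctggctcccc
CDKN2A, p14ARF start: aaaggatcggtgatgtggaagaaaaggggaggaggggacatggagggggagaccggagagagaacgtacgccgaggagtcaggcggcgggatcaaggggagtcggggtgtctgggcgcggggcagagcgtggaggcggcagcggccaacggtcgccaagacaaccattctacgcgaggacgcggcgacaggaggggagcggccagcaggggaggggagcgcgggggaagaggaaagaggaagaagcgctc
CDKN2A, p16 start: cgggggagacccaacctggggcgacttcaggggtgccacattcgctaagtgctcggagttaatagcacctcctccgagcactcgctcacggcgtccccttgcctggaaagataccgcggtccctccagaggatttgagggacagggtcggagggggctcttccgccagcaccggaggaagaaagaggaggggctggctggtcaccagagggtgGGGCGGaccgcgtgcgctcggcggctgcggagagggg
CDK4: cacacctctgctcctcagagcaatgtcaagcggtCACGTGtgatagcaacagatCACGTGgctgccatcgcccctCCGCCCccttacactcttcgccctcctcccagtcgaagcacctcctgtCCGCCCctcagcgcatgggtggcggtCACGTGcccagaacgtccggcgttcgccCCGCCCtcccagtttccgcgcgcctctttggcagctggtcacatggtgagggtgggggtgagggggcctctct

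The CDKN2B window held 1 TEAD core, 199 bases before the start, and 2 GC-boxes. The CDK4 window held 3 E-boxes, at 216, 196 and 101 bases before the start, with 3 GC-boxes, while the p14ARF window held none of the motifs and the p16 window 1 GC-box. Over all 14 windows of the 8 genes, the E-box was found in 3 windows (6.34% of 35116 RefSeq windows of the same length), the TEAD core in 4 (11.9%) and the GC-box in 10 (42.6%). E2F sites, searched as TTTCGCGC, TTTGGCGC, TTTCCCGC or TTTGCCGC on both strands, were found in 0 windows (2.79% of all), which says only that these letters are not there.

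Between the groups, CDKN2B fell and no other gene of the 10 passed the test with all 6 libraries. With an adjusted p of at most 0.05, 1 of 10 was called, against 16.6% of all genes tested, and with a log2 fold change past 1 in either direction as well it was again 1 of 10, against 7.06%. The calls over all genes were 1671 higher and 1820 lower, or 1235 and 2668 when libraries were scaled by their totals alone. The fitted change was negative in 7 genes, with a median log2 fold change of −0.39 over the 10 and −0.01 over all genes tested. Control and knockout libraries did not overlap for 5 of the 10 (CCND1, CDKN1B, CDKN2A, CDKN2B and CDKN2C), against 41.6% of all genes tested. Without control replicate 3, 8 of 10 were called, 2 higher and 6 lower, but so were 65.6% of all genes tested in that fit. With a log2 fold change past 1 in either direction, that fit called 2 of the 10, CCND3 and CDKN2B, against 22.9% of all genes tested.

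**Figure D1:**
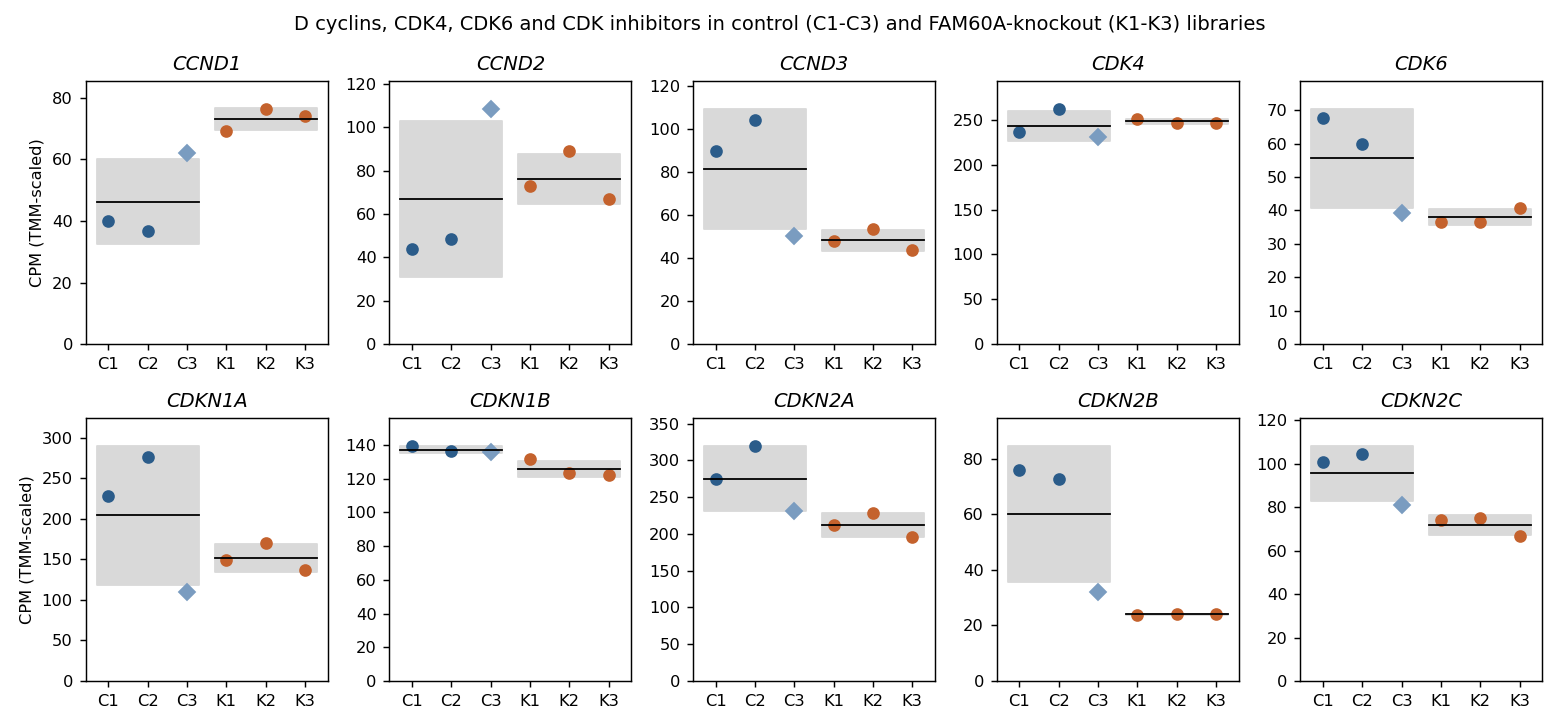
CPM of each gene in control (C1 to C3, blue, with control replicate 3 as a pale diamond) and FAM60A-knockout libraries (K1 to K3, orange), with the mean as a line and 1 SD either side as a grey band; each panel has its own axis from 0. CDKN2B sits at 23.6 to 24.3 CPM in the knockout libraries, at 72.7 and 75.9 in control replicates 1 and 2, and at 32 in control replicate 3.

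Levels per kilobase of merged exons, used here to set genes side by side, ran from CDK4 down to CDK6. That length joins every annotated exon of a gene and can exceed the length of the transcripts expressed. The order, sums and shares of genes therefore hold on this scale only. In control libraries CDK4 was at 78.5 ± 5.33 CPM per kb (SD, n = 3), CDKN2A at 70.8 ± 11.4 and CDKN1A at 68.2 ± 28.6, and these neighbours in the order did not differ beyond their spread. CDKN2C followed at 31.7 ± 4.2. CDKN2B, CDKN1B and CCND3 came next within their spread of each other, at 15.1 ± 6.12, 14.8 ± 0.215 and 14.1 ± 4.82 CPM per kb. CCND1 (9.70 ± 2.89) and CCND2 (8.39 ± 4.49) followed and CDK6 was lowest at 4.54 ± 1.20, and each step from CCND3 down to CDK6 was smaller than the SD of the higher or the lower gene. Without control replicate 3 the order and these steps differed: CCND3 was at 16.8 ± 1.73 CPM per kb, CCND1 at 8.04 ± 0.461 and CCND2 at 5.80 ± 0.416 (SD, n = 2), so that both steps between them exceeded the SDs. CDKN1A, at 84.1 ± 11.4, was then above CDK4, at 80.4 ± 5.84, by less than their spread. In knockout libraries CCND1 was the highest of the D cyclins, at 15.4 ± 0.760 CPM per kb, and CDKN2B stood below all 3 of them at 5.99 ± 0.0855.

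Of the 3 D cyclins, which are interchangeable in part as activators of CDK4 and CDK6, 0 were called by edgeR with all 6 libraries, with 2 (CCND1 and CCND3) at an unadjusted p under 0.05. Without control replicate 3 all 3 were called, CCND1 and CCND2 higher and CCND3 lower. CCND1, cyclin D1 (GRCh37 chr11:69455924-69469242, plus strand), was at 39.8, 36.7 and 62.0 CPM in control replicates 1 to 3 and at 69.1, 76.2 and 73.9 CPM in the knockout libraries. All knockout libraries were above all controls, though control replicate 3 was much nearer to them than to the other controls. The means were 46.2 ± 13.8 and 73.1 ± 3.62 CPM (SD, n = 3), 1.58-fold apart, and the log2 fold change of 0.66 (SE 0.21) missed the threshold (edgeR quasi-likelihood adjusted p = 0.0744). CCND1 shares 497 exon bases with LTO1 on the opposite strand, which had 983 to 1297 counts against 3530 to 6688 for CCND1, and the counting is not stated to have used strand. A two-sided exact permutation test of the CPM gave p = 0.1, the smallest that 3 against 3 libraries allow. Without control replicate 3 the log2 fold change of CCND1 was 0.90 (SE 0.08, edgeR adjusted p = 2.51e-09), in a fit that called 65.6% of all genes tested. That library was set apart with earlier results of these data known, so the fit without it is no separate evidence of a rise.

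CCND2, cyclin D2 (chr12:4378937-4414519, plus strand), was at 44, 48.7 and 108 CPM in control replicates 1 to 3 and at 72.8, 89.1 and 66.9 CPM in the knockout libraries. CCND2 shares 999 exon bases with another annotated protein-coding gene on the same strand, which had 0 or 1 counts per library. Strand cannot separate reads of that overlap. Control replicate 3 was the highest of all 6, so the groups overlapped, and the log2 fold change was 0.19 (SE 0.36, edgeR adjusted p = 0.744). Without control replicate 3 the log2 fold change was 0.69 (SE 0.10, edgeR adjusted p = 2.74e-06). CCND3, cyclin D3 (chr6:41902672-42018095, minus strand), was lower on average in knockout libraries, at 89.8, 104 and 50.3 CPM in controls and 47.8, 53.5 and 43.6 CPM in knockout libraries. Control replicate 3 lay inside the knockout range, and the log2 fold change was −0.75 (SE 0.26, edgeR adjusted p = 0.0997) with it and −1.03 (SE 0.09, edgeR adjusted p = 1.07e-09) without it.

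Summed per kilobase, the D cyclins overlapped between the groups, while their make-up differed. The sum was 29.5 and 31.8 CPM per kb in control replicates 1 and 2, 35.3 in control replicate 3 and 31.5 to 36.4 in the knockout libraries. CCND3 made up 52.9 to 56.6% of that sum in control replicates 1 and 2, 24.7% in control replicate 3 and 24.0 to 26.0% in the knockout libraries. CCND1 made up 24.2 to 28.4% in control replicates 1 and 2, 36.9% in control replicate 3 and 43.9 to 49.3% in the knockout libraries. The share of CCND2 was 18.7 to 19.1%, 38.4% and 26.6 to 30.6% in the same order. On this scale CCND3 was the largest share in control replicates 1 and 2 and the smallest of the 3 in each of the other 4 libraries. The merged exons used were 4761, 7988 and 5761 bases for CCND1, CCND2 and CCND3. They cover every annotated exon, not only the transcripts expressed, so the order of the 3 within a library depends on those lengths.

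**Figure D2:**
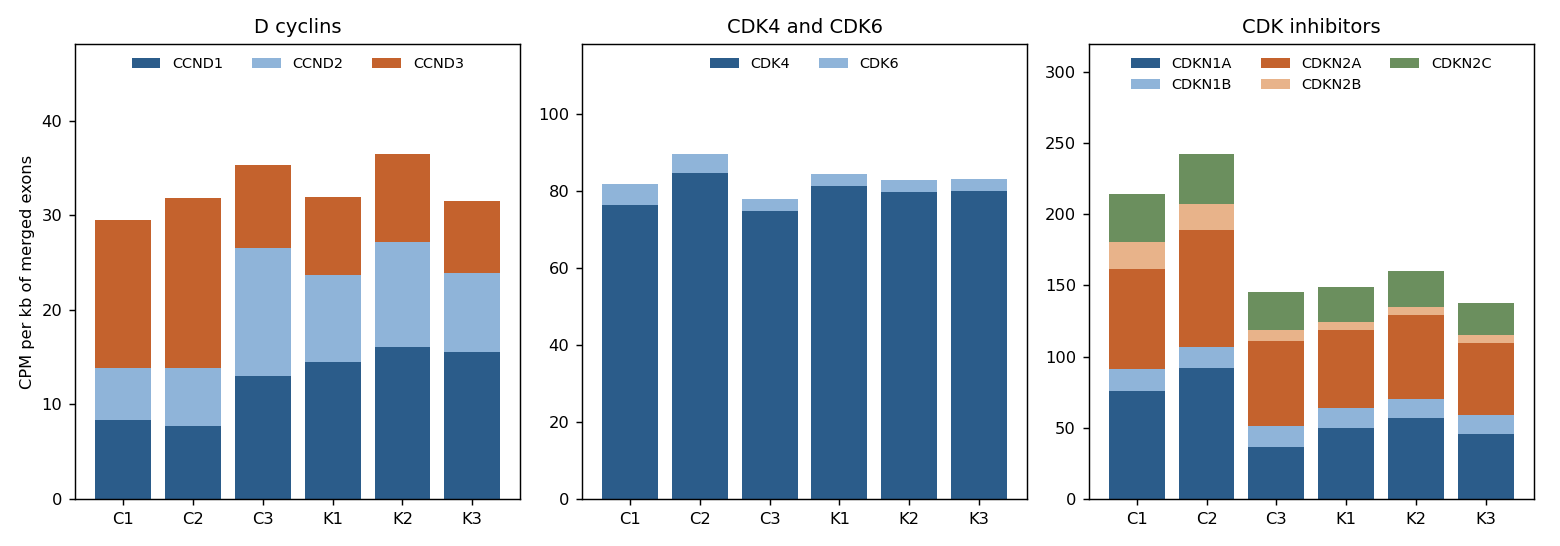
Stacked CPM per kilobase of merged exons in each control (C1 to C3) and knockout (K1 to K3) library, for the D cyclins (left), CDK4 and CDK6 (middle) and the inhibitors (right). The CCND3 segment is more than 50% of the D cyclin bar in C1 and C2 only, CDK4 fills over 93% of every kinase bar, and the inhibitor bars of C3 and K1 to K3 are all lower than those of C1 and C2.

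CDK4 and CDK6, the catalytic partners of the D cyclins, differed from each other. CDK4 (chr12:58141510-58149796, minus strand) was at 236, 262 and 231 CPM in control replicates 1 to 3 and at 251, 247 and 247 CPM in the knockout libraries. The knockout values fell inside the control range, with a log2 fold change of 0.03 (SE 0.09, edgeR adjusted p = 0.827). The gene overlaps TSPAN31 on the opposite strand over 1369 exon bases, and reads of the overlap, as for CCND1, cannot be told apart unless the counting used strand.

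CDK6 (chr7:92234235-92465887, minus strand) was at 67.6, 59.8 and 39.1 CPM in controls and at 36.6, 36.5 and 40.8 CPM in knockout libraries. Control replicates 1 and 2 were well above the other 4 libraries, and control replicate 3 lay among the knockout values. Its log2 fold change was −0.55 (SE 0.20, edgeR adjusted p = 0.114), or −0.78 (SE 0.08, edgeR adjusted p = 3.26e-08) without control replicate 3. Because CDK6 was so low per kilobase, CDK4 made up 93.2 to 95.9% of the kinase sum in controls and 96.0 to 96.4% in knockout libraries.

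All 5 inhibitors had a lower mean in the knockout libraries than in the controls. CDKN1A (p21, which halts the cycle after DNA damage; chr6:36644237-36655114, plus strand) was at 228, 276 and 109 CPM in controls and at 149, 171 and 137 CPM in knockout libraries. Control replicate 3 was the lowest of all 6 libraries, so that the knockout values lay between it and the other controls. The log2 fold change was −0.43 (SE 0.32, edgeR adjusted p = 0.391), and −0.76 (SE 0.09, edgeR adjusted p = 3.83e-07) without control replicate 3. CDKN1B (p27; chr12:12838432-12875303, plus strand) was at 140, 137 and 136 CPM in controls and at 132, 124 and 122 CPM in knockout libraries. Here control replicate 3 sat with the other controls, and although the groups did not overlap the means were only 1.09-fold apart. CDKN1B did not pass the test with control replicate 3 (log2 fold change −0.13, SE 0.08, edgeR adjusted p = 0.304) or without it (−0.17, SE 0.07, edgeR adjusted p = 0.0557).

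All 3 INK4 genes among the 10 were lower in every knockout library than in every control. Such a separation, in one direction or the other, was found for 41.6% of all genes tested. Of the 3, CDKN2B was the 1 called. CDKN2B (p15, an inhibitor induced by TGF-beta; chr9:22002902-22009304, minus strand, its promoter printed above) was at 75.9, 72.7 and 32 CPM in controls and at 23.6, 24.3 and 23.9 CPM in knockout libraries. The knockout libraries were almost equal to each other, and control replicate 3 was nearer to them than to the other controls. The means of 60.2 ± 24.5 and 23.9 ± 0.342 CPM (SD, n = 3) were 2.51-fold apart, and CDKN2B fell by 1.33 on the log2 scale (SE 0.32, edgeR adjusted p = 0.0378). Control replicate 3 held most of the control spread, and without it the log2 fold change was −1.66 (SE 0.07, edgeR adjusted p = 2.64e-14). The call was lost when any other library was left out, with edgeR adjusted p from 0.103 to 0.155.

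CDKN2A (p16 and p14ARF; chr9:21967751-21995300, minus strand) lies 7.60 kb from CDKN2B in the same locus. It was at 274, 320 and 231 CPM in controls and at 212, 228 and 196 CPM in knockout libraries. The groups were separated by a narrow gap, between control replicate 3 and knockout replicate 2. The log2 fold change was −0.38 (SE 0.14, edgeR adjusted p = 0.113), or −0.52 (SE 0.09, edgeR adjusted p = 1.92e-05) without control replicate 3. Gene counts do not separate the p16 and p14ARF transcripts, and the antisense transcript CDKN2B-AS1, which overlaps CDKN2A over 593 exon bases, had 249 to 546 counts.

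CDKN2C (p18; chr1:51426417-51440306, plus strand) was at 101, 105 and 81.1 CPM in controls and at 74.0, 75.3 and 66.7 CPM in knockout libraries. Control replicate 3 again lay between the other controls and the knockout values. The log2 fold change of −0.41 (SE 0.12) narrowly missed the threshold (edgeR adjusted p = 0.0698) and was −0.55 (SE 0.08, edgeR adjusted p = 1.97e-06) without control replicate 3. Summed per kilobase, the 3 INK4 genes among the 10 were at 123 to 135 CPM per kb in control replicates 1 and 2. Their sum was 94.5 in control replicate 3 and 78.5 to 89.7 in the knockout libraries.

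**Figure D3:**
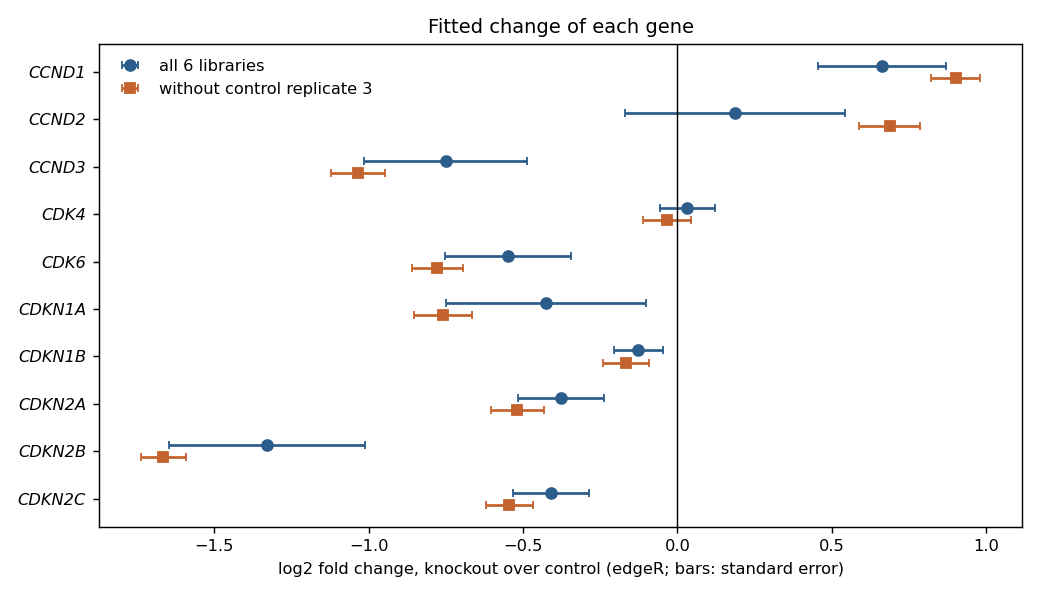
Fitted log2 fold change of each gene, knockout over control, with its standard error, from all 6 libraries (blue circles) and without control replicate 3 (orange squares). CDKN2B is farthest from 0 in both fits, at −1.33 and −1.66, and CCND2 moves most between them, from 0.19 to 0.69.

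Control replicate 3 was nearer the knockout mean than the mean of control replicates 1 and 2 in 9 of the 10 genes, against the 58.9% of all genes given above. CDKN1B was the exception, and the result for CDK4 rests on differences of at most 0.11 on the log2 scale. For CCND3, control replicate 3 differed from the mean of control replicates 1 and 2 by −0.94 and the knockout mean by −1.0 on the log2 CPM scale, nearly the same. CDK6 gave −0.70 and −0.75. For CCND2 (1.23 against 0.71) and CDKN1A (−1.20 against −0.73), control replicate 3 was farther from the other controls than the knockout mean was. For CCND1 (0.70 against 0.93) and CDKN2B (−1.22 against −1.63) it fell short of the knockout mean.

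**Figure D4:**
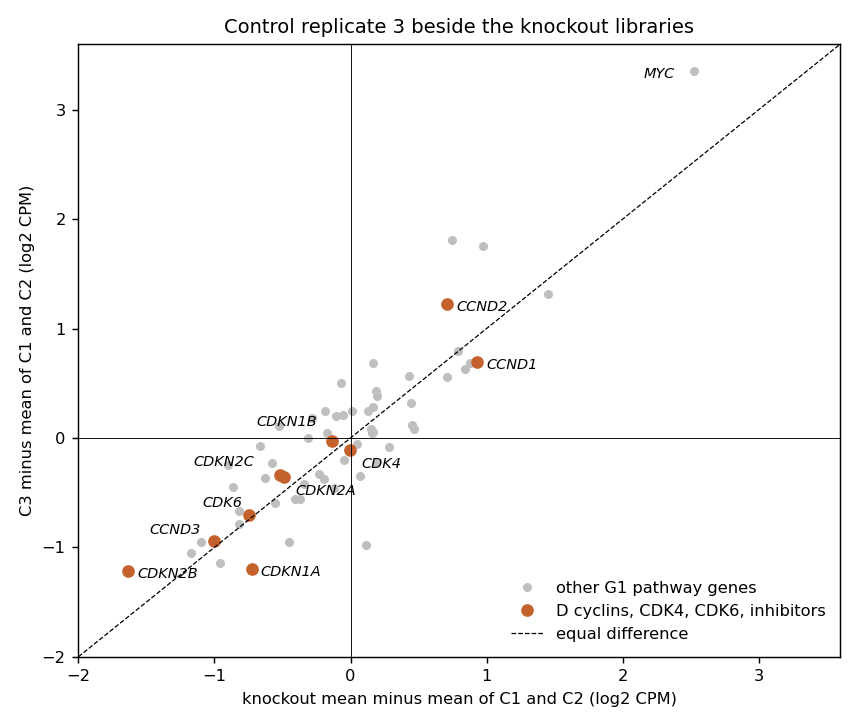
Difference of control replicate 3 (C3, vertical axis) and of the knockout mean (horizontal axis) from the mean of control replicates 1 and 2 (C1 and C2), in log2 CPM, for the 10 genes (orange) and 53 other genes of the G1 pathway (grey); both axes share C1 and C2, so points along the dashed line are no independent relation. CCND2 and MYC lie above the line, CDKN1A below it, and CCND3 and CDK6 next to it.

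Summed markers of the cell line were also lower in control replicate 3 and the knockout libraries, though not each marker was. The 7 HEK293 markers listed (VIM, KRT8, KRT18, NEFL, NEFM, PAX2 and LHX1) summed to 1637 and 1689 CPM in control replicates 1 and 2, 918 CPM in control replicate 3 and 736 to 875 CPM in the knockout libraries, with 6 of 7 at 1 CPM or more in every library. VIM and KRT8 made up most of that sum, at 694 and 712 CPM in control replicate 1. NEFL and PAX2 were instead highest in control replicate 3, at 143 and 5.97 CPM, and NEFM sat there with the other controls. Of the 7, LHX1 and NEFM were called, both lower (edgeR adjusted p = 0.0353 and 0.0493). The 6 markers of MDA-MB-231, a breast cancer line also used in the study, summed to 467 and 475 CPM in control replicates 1 and 2, 140 CPM in control replicate 3 and 154 to 167 CPM in the knockout libraries, and all 6 were at 1 CPM or more in every library. ANXA1 made up most of that sum in control replicates 1 and 2, at 286 and 295 CPM, and PLAU was the 1 of the 6 that was called, higher in knockout libraries (edgeR adjusted p = 0.0226). The 4 fibroblast markers summed to 19.7 to 28.6 CPM in controls and 23.3 to 23.7 CPM in knockout libraries, but 3 of them were called, in opposite directions, and COL1A2 had 3 counts or fewer throughout. COL1A1 fell by 0.66 on the log2 scale (edgeR adjusted p = 0.0361), and LUM rose from 2.51, 2.32 and 0.487 CPM in controls to 9.37, 7.32 and 8.23 CPM in the knockout pool (a log2 fold change of 2.23 with an edgeR adjusted p = 0.0463). DCN rose from 0 to 1 counts in controls to 30 to 33 counts in knockout libraries (edgeR adjusted p = 0.00373). These genes encode matrix proteins of fibroblasts. The 4 leukocyte markers summed to 0.300 to 1.74 and 0.321 to 0.433 CPM, with CD3E at 3 counts or fewer throughout. The part of these differences in the results above was not tested.

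Among 53 other genes of the pathway, listed as RB and E2F proteins, later cyclins and kinases, further inhibitors, turnover factors and transcription regulators, 7 passed the test, 2 higher and 5 lower, and 34 passed it without control replicate 3, 12 higher and 22 lower. Both counts are shares below those of all genes tested, 16.6% and 65.6%, and the counts per list that follow are to be read against the same 16.6%. The RB and E2F list had 3 of 13 called, all lower. E2F6, a repressor that acts without RB, was at 28.4, 30.2 and 24.7 CPM in controls and 15.7, 16.6 and 14.8 CPM in knockout libraries, a fall of 0.82 on the log2 scale (SE 0.12, edgeR adjusted p = 0.0111). E2F4, the main E2F of repressive complexes, fell by 0.65 (SE 0.09, edgeR adjusted p = 0.00904), and RBL2 (p130), which binds it in resting cells, fell by 0.51 (SE 0.10, edgeR adjusted p = 0.0242). RB1 itself was at 77.9, 68.7 and 69.1 CPM in controls and 89.6, 89.9 and 86.9 CPM in knockout libraries, without overlap (log2 fold change 0.30, SE 0.09, edgeR adjusted p = 0.0631). E2F1, the activator that RB restrains, was at 79.3, 86.3 and 95.2 against 74.6, 83.2 and 73.3 CPM, with overlap.

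Of the 8 later cyclins and kinases, 1 was called: CCNH, the cyclin of the CDK-activating kinase, rose by 0.41 (SE 0.10, edgeR adjusted p = 0.0360). CCNE1, cyclin E1, which drives S phase entry with CDK2, was at 32.6, 36.5 and 55.4 CPM in controls and 64.3, 70.5 and 56.5 CPM in knockout libraries, without overlap (log2 fold change 0.62, SE 0.21, edgeR adjusted p = 0.0966). CDK2 was at 104, 114 and 124 against 89.7, 92.9 and 86.2 CPM (log2 fold change −0.35, SE 0.10, edgeR adjusted p = 0.0570). Cyclin E2 (CCNE2) overlapped between the groups, with its lowest level, 18.8 CPM, in control replicate 3.

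The remaining inhibitors CDKN1C (p57) and CDKN2D (p19) were both under 12 CPM, and 0 of the 2 were called by edgeR, with 1 at an unadjusted p under 0.05. CDKN2D, the fourth INK4 gene, was at 9.25, 11.1 and 7.87 CPM in controls and 6.26, 7.27 and 6.16 CPM in knockout libraries, in the direction of the other INK4 genes (log2 fold change −0.52, SE 0.18, edgeR adjusted p = 0.1). CDKN1C was highest in control replicate 3, at 4.39 CPM, and the groups overlapped. The log2 fold change of CDKN1C was 0.16 (SE 0.53, edgeR adjusted p = 0.852), opposite in sign to that of CDKN2D. Without control replicate 3 CDKN1C was at 0.98 (SE 0.17, edgeR adjusted p = 3.48e-05) and CDKN2D at −0.66 (SE 0.10, edgeR adjusted p = 1.04e-05). Of 12 turnover factors, 0 were called by edgeR, with 2 at an unadjusted p under 0.05, and SKP2, the F-box protein that marks p27 for destruction, had a log2 fold change of 0.07 (SE 0.11, edgeR adjusted p = 0.688).

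Of 18 transcription regulators, 3 were called, a share close to the 16.6% of all genes tested. SMAD4, the common mediator of TGF-beta signalling, of which CDKN2B is a target, was at 103, 108 and 77.2 CPM in controls and 58.2, 58.4 and 57.7 CPM in knockout libraries, a fall of 0.73 (SE 0.14, edgeR adjusted p = 0.0216). ETS1 fell by 0.56 (SE 0.12, edgeR adjusted p = 0.0280), and ZBTB17 (MIZ1), through which MYC represses CDKN2B and CDKN1A, rose by 0.44 (SE 0.08, edgeR adjusted p = 0.0210). MYC was at 19.5, 21.0 and 207 CPM in control replicates 1 to 3 and at 112, 130 and 108 CPM in knockout libraries. Control replicate 3, the highest library for MYC, was also the highest for CCND2 and the lowest for CDKN1A. For CDKN2B that library was at 32 CPM, above the knockout libraries at 23.6, 24.3 and 23.9 CPM. The log2 fold change of MYC was 0.50 (SE 0.91, edgeR adjusted p = 0.731) with control replicate 3 and 2.50 (edgeR adjusted p = 1.62e-15) without it. A link between MYC and the levels of these genes was not tested.

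**Figure D5:**
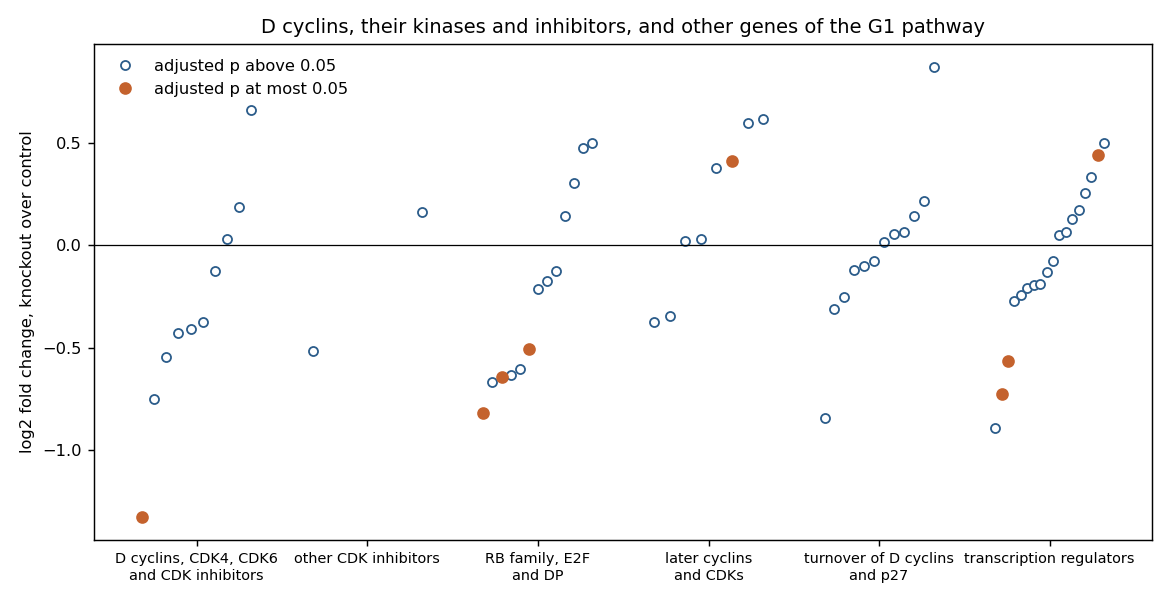
Fitted log2 fold change, knockout over control, of each gene in the D cyclin, kinase and inhibitor set and in 5 lists of other G1 pathway genes, sorted within each list; filled points have an edgeR adjusted p of at most 0.05. Filled points number 1 among the 10 genes on the left (CDKN2B) and 7 among the other 53.

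Beside the 10 genes lay 18 other protein-coding genes that were tested, taking the nearest on each side in GRCh37, and 3 of them were called, again a share close to the 16.6% of all genes tested. TAF8, a TFIID subunit 0.155 kb from CCND3, fell by 1.07 (edgeR adjusted p = 0.0418), in the direction of CCND3. TPCN2, an endolysosomal channel 552 kb from CCND1, rose by 1.01 (edgeR adjusted p = 0.0121), and APOLD1, 3.55 kb from CDKN1B, rose by 0.97 (edgeR adjusted p = 0.00659) while CDKN1B did not pass the test. MTAP, a methionine salvage enzyme 30.1 kb from CDKN2A, had a log2 fold change of −0.06 (edgeR adjusted p = 0.697), unlike the lower levels at CDKN2A and CDKN2B. DMRTA1, on the other side of CDKN2B, had a log2 fold change of 0.73 (edgeR adjusted p = 0.0561).

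The genes whose levels followed CCND1 most closely over the 6 libraries, by the root mean square difference of centred log2 CPM, were LSM14A (0.0344), PRDM6 (0.0412) and RHBDF2 (0.0459). LSM14A was at 170, 162 and 278 CPM in controls and at 310, 330 and 311 CPM in knockout libraries, so it too had control replicate 3 between the other controls and the knockout libraries. These are the closest of 20992 genes over only 6 libraries and are given as a description.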

How the data were processed

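Poly(A) RNA of 3 control and 3 FAM60A-knockout libraries was sequenced. Per the labels' processing notes the tools were STAR 2.7.10b and featureCounts 2.0.0 with hg38, while the study's methods name Trimmomatic and Salmon and another label names hg19; annotation release and use of strand in counting are not given in the sources used here. The authors deposited raw counts, whole numbers for each Ensembl gene that had not been normalized.

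Groups were taken from sample titles. Knockout was compared with control by edgeR 4.0.16 (R 4.3.3): TMM, filterByExpr with a minimum count of 10, the two-sided quasi-likelihood F-test and Benjamini-Hochberg adjustment over 20992 genes. A gene was called where its adjusted p did not exceed 0.05, and calls with a log2 fold change past 1 in either direction were counted as well. Single genes were also compared by two-sided exact permutation tests of CPM. Log2 CPM used a prior count of 2. Lengths and neighbours came from GENCODE on GRCh37, and counts per gene do not depend on them. The fit was tested on simulated data.

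Totals of 88361827 to 93346824 counts gave a largest counting error of 2.24% among the 10 genes. Alternatives were DESeq2 1.42.0, library size in place of TMM, limma-voom (limma 3.58.1) after quantile normalization, all genes unfiltered, at least 10 counts in every library, a prior count of 0.5, the replicate number as a block, and leaving out each library. The 10 genes, the gene lists and the separate treatment of control replicate 3 were chosen with earlier results of these data known. Named besides the 10 were RB1, E2F1, CCNE1, CCNE2, CDK2, CDKN1C, CDKN2D, MYC and SKP2, and up to 3 genes per list with the largest changes among called genes without overlap. 1 further gene of the naming rule is not reported here. FAM60A, the nearest neighbours and the 3 genes most like CCND1 were also named. ANXA1, TSPAN31, CDKN2B-AS1, LTO1 and the marker genes singled out were named after their values were seen.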

Additional observations from a re-analysis of the deposited data

How the results depend on the processing

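Of the 10 genes, edgeR called 1 with all libraries. DESeq2 called 4, namely CCND1 (log2 fold change 0.64, adjusted p = 0.0264), CCND3 (−0.78, adjusted p = 0.0394), CDKN2B and CDKN2C (−0.43, adjusted p = 0.0302). Library size without TMM, which shifted the median log2 fold change of all genes to −0.12, called 2, adding CDKN2C (−0.52, or −0.40 relative to that median, edgeR adjusted p = 0.0339). limma-voom called 0, with 6 at an unadjusted p under 0.05, and gave CDKN2B −1.22 (limma-voom adjusted p = 0.0540). With a log2 fold change past 1 in either direction, limma-voom called 0 of the 10. CDK4 changed sign under limma-voom (−0.036), library size (−0.077, or 0.040 relative to that median), without control replicate 1 (−0.017) and without control replicate 3 (−0.035), and CCND2 without control replicate 1 (−0.064). Of the 53 other pathway genes, 7 were called, against 16 by DESeq2, 11 with library size and 4 without a filter. Over all genes, 3491 were called, against 5581 by DESeq2.

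Leaving out 1 library gave between 0 and 8 calls among the 10 genes: 8 without control replicate 3, and 0 by edgeR without any one of the others, with 2 to 4 at an unadjusted p under 0.05. With a log2 fold change past 1 these were 0 to 2, among the 53 other genes 0 to 34, and among all genes 167 (without knockout replicate 1) to 14221 (without control replicate 3). Log2 fold changes ranged over these fits from 0.52 to 0.90 for CCND1, −0.064 to 0.69 for CCND2, −1.03 to −0.54 for CCND3, −0.035 to 0.086 for CDK4, −0.78 to −0.41 for CDK6, −0.76 to −0.15 for CDKN1A, −0.17 to −0.096 for CDKN1B, −0.52 to −0.26 for CDKN2A, −1.66 to −1.16 for CDKN2B and −0.55 to −0.34 for CDKN2C. Over all 12 alternatives the adjusted p ran from 2.51e-09 to 0.21 for CCND1, 2.74e-06 to 1.0 for CCND2, 1.07e-09 to 0.276 for CCND3, 0.557 to 0.961 for CDK4, 3.26e-08 to 0.297 for CDK6, 3.83e-07 to 0.803 for CDKN1A, 0.0557 to 0.615 for CDKN1B, 1.92e-05 to 0.317 for CDKN2A, 2.64e-14 to 0.155 for CDKN2B and 1.97e-06 to 0.24 for CDKN2C (edgeR, DESeq2 or limma-voom). FAM60A missed the threshold on removal of knockout replicate 1 (edgeR adjusted p = 0.0719), replicate 2 (0.0571) or replicate 3 (0.0736), and in the block fit described next (0.0551). The cause of these changes was not tested.

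The replicate numbers showed no sign of pairing the libraries: deviations of same-numbered control and knockout libraries correlated at 0.0101, 0.0306 and −0.0362. Control replicate 1 correlated at −0.0841 and 0.0771 with knockout replicates 2 and 3. With 3 libraries per group and control replicate 3 standing apart, such correlations cannot exclude a pairing. Fitted with a replicate block, edgeR called 0 of the 10, with or without the log2 fold threshold (5 at an unadjusted p under 0.05; CDKN2B −1.23, edgeR adjusted p = 0.0872), 0 of the 53 and 407 of all genes.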
